A study of Homo sapiens with 6 samples.

Results

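The NRF2 targets NQO1, HMOX1, GCLM, GCLC, TXNRD1 and SRXN1 and the aldo-keto reductase genes AKR1B10, AKR1C1, AKR1C2 and AKR1C3 were followed, 10 genes in all. They were chosen by their symbols, and all 10 of them had a row among the 32943 genes of the count table. RNA was sequenced from AGS cells, labelled as a cell line and known as a human gastric adenocarcinoma line, in 3 control libraries, from cells given a control plasmid, and 3 overexpression libraries, from cells given the plasmid pcDNA3.1-3xFlag-IGF2BP3. Plasmids were delivered with Lipofectamine 3000, a transient transfection, and cells were collected 48 h later. Counts do not separate plasmid from endogenous IGF2BP3 RNA, and the labels give neither the share of cells transfected nor the insert of the control plasmid. IGF2BP3 is an RNA-binding protein known to bind mRNAs and to affect their stability and translation.

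NRF2, encoded by NFE2L2, is a transcription factor that KEAP1 holds in the cytoplasm and hands to a ubiquitin ligase for degradation. Oxidants and electrophiles modify KEAP1, and NRF2 then enters the nucleus, pairs with small MAF proteins and binds antioxidant response elements near genes for glutathione synthesis, thioredoxin reduction, NADPH supply, quinone reduction and heme breakdown. BACH1 competes for the same elements. The aldo-keto reductases use NADPH to reduce aldehydes, ketones and steroids, several of their genes are known NRF2 targets, and the AKR1C enzymes are well known from liver, where they act on steroid hormones and bile acid precursors.

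The core of the antioxidant response element was searched as TGACNNNGC on both strands of RefSeq promoter windows (GRCh38.p14), which run from 250 bases before to 50 bases after a gene's start. Of the 10 genes, 8 had a window, 10 windows in all, because TXNRD1 and AKR1C3 have 2 each. The motif occurred in 3 of these 10 windows, both of TXNRD1 and the window of GCLM, and in 13.3% of all 35116 windows. The stretches around the matches are shown because TXNRD1 is the one gene of the 10 that rose by more than 1.5-fold. The gene's strand is given 5′ to 3′, with the match in capitals. The match 99 bases before the first TXNRD1 start is on the gene's strand and the other 3 are on the opposite strand.
TXNRD1, first start, chr12:104215664-104215782, plus strand: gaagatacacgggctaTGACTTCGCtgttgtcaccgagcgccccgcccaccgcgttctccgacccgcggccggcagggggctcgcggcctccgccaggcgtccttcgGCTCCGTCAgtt
TXNRD1, second start, chr12:104286920-104286949, plus strand: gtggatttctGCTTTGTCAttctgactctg
GCLM, chr1:93909441-93909500, minus strand: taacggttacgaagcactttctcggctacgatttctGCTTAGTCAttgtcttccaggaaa
The first start of TXNRD1 had matches beginning 99 and 8 bases before the start, the second start 102 bases before it, and GCLM 34 bases before it. The letters were not found in the windows of NQO1, GCLC, SRXN1, AKR1C1, AKR1C2 and AKR1C3, which says nothing of elements outside these windows. A match describes the sequence and not the binding of a factor.

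AKR1C1 (ENSG00000187134.14, GRCh38 chromosome 10, 4963253 to 4983283, plus strand), AKR1C2 (ENSG00000151632.17, 4987400 to 5018031, minus strand) and AKR1C3 (ENSG00000196139.14, 5035354 to 5107686, plus strand) lie side by side. The aligned bases of the AKR1C1 and AKR1C2 promoter windows were 98.6% identical, and those of the second AKR1C3 window were 79.5% and 80.6% identical to them. The longest run that all 3 windows share has 19 bases and is in capitals below. The stretches are shown because these 3 genes moved together and because they show how close the copies are.
AKR1C1, chr10:4963326-4963355, plus strand: ctctcACATGCCATTGGTTAACCAgcagac
AKR1C2, chr10:5003921-5003950, minus strand: ctctcACATGCCATTGGTTAACCAgcagac
AKR1C3, second window, chr10:5094316-5094345, plus strand: ctcctACATGCCATTGGTTAACCAtcagtc
The transcripts are also alike. Of all stretches of 150 bases, the length of a read, in the longest coding transcript of GENCODE release 29, 11.3% for AKR1C1, 21.2% for AKR1C2 and 1.33% for AKR1C3 also occurred in a transcript of another AKR1C gene. Reads from these stretches cannot be assigned to 1 gene, so the split among the 3 genes is uncertain. For NQO1, HMOX1, GCLM, GCLC, TXNRD1 and AKR1B10 no such stretch occurred in another gene. For SRXN1 (ENSG00000271303.2, chromosome 20, 646615 to 653370, minus strand) it was 84.2%, all shared with AL121758.1, a longer transcribed unit annotated over SRXN1 on the same strand. AL121758.1 had no row in the count table under its Ensembl gene ID, so it had no counts to set beside those of SRXN1.

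The libraries held 33555366 to 37633587 counts. Levels are given as CPM, counts scaled to one common library size after TMM, and ± marks the SD of the 3 libraries of a group unless SE is named. In the brackets after pathway genes the value is the log2 fold change with its SE. Genes were called by edgeR's quasi-likelihood test over 17747 genes at a Benjamini-Hochberg adjusted p under 0.05. IGF2BP3 itself was at 90.6 to 102 CPM in controls and 511 to 664 CPM with the plasmid (log2 fold change 2.58 ± 0.08 SE, edgeR adjusted p = 1.278e-08). A two-sided exact permutation test gave p = 0.1, the smallest that 3 against 3 libraries allow. Control replicate 1 and overexpression replicate 3 stood apart from the others of their groups, with a chi-square per gene of 7.58 to 9.30 against them where the other pairs within a group had 2.04 and 2.48. Mitochondrial genes took 6.15% to 6.54% of counts in controls and 5.03% to 5.28% with overexpression. Epithelial markers were present (sum of 5 genes 9782 to 10255 CPM in controls and 8865 to 10240 CPM with overexpression). The gastric markers were nearly absent, with a sum over the 7 of 10 that had counts of 4.24 to 5.93 CPM in controls and 1.53 to 1.82 CPM with overexpression. GKN1, GKN2 and GIF had no row in the count table under these symbols. All 8 hepatocyte markers were detected and fell, from a sum of 3222 to 3403 CPM to 1873 to 2080 CPM. In controls ALB was at 1512 ± 46.8 CPM, FGB at 998 ± 21.8 CPM and AFP at 531 ± 28.0 CPM, which made up most of the hepatocyte sum. The other hepatocyte markers had lower control means, HNF4A 133 CPM, APOB 93.8 CPM, SERPINA1 33.4 CPM, TTR 10.99 CPM and APOA1 2.42 CPM. APOA1 was thus about as low as the gastric markers. The near absence of gastric markers and the levels of ALB, FGB and AFP go against the label of a gastric line. They put it in doubt, so AGS stands here for the label and not for a cell type shown by the data. The 5 intestinal markers, 4 with counts, summed to 449 to 468 CPM and 363 to 373 CPM, the 6 fibroblast markers to 210 to 220 CPM and 121 to 135 CPM. VIL1 made up most of the intestinal sum, with means of 431 CPM in controls and 352 CPM with overexpression. LUM made up most of the fibroblast sum, with means of 164 CPM in controls and 97.2 CPM with overexpression. The 5 immune markers, nearly all of it CD14, summed to 66.1 to 72.6 CPM and 20.9 to 30.3 CPM. The 4 endothelial markers, 3 with counts, stayed under 1 CPM. The part of these marker differences in the results below was not tested, and in bulk RNA fewer cells of a type and less RNA per cell cannot be told apart.

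The 10 genes moved in both directions. With IGF2BP3, TXNRD1, GCLC and SRXN1 rose, NQO1, AKR1C1, AKR1C2, AKR1C3 and HMOX1 fell, and GCLM and AKR1B10 did not pass the test. That is 3 higher and 5 lower of 10, where 18.5% of all genes tested were called higher, 19.2% lower and 37.7% in either direction. The median log2 fold change of the 10 genes was −0.29, beside −0.01 over all genes tested. The control and overexpression libraries did not overlap for 8 of the 10, where this held for 50.6% of all genes. At a fold of 1.5 or more TXNRD1 was the one called gene of the 10 that was higher and AKR1C1 and AKR1C3 were the 2 that were lower, where 2.29% and 7.14% of all genes met that rule and 9.43% did in either direction. No gene of the 10 had been left out by the filter on low counts.

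**Figure D1:**
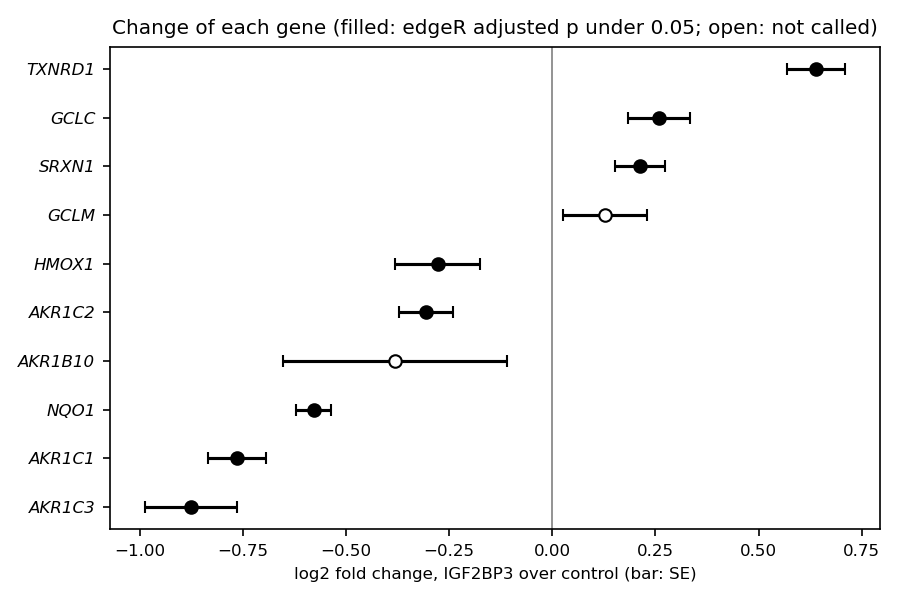
Log2 fold change of each of the 10 genes, overexpression over control (x axis), with its SE as a bar. Filled points passed edgeR's adjusted p under 0.05, and the genes run from AKR1C3 at −0.88 to TXNRD1 at 0.64 on either side of 0.

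Of the thioredoxin branch, TXNRD1 encodes the cytosolic selenoprotein that uses NADPH to reduce thioredoxin (ENSG00000198431.16, chromosome 12, 104215779 to 104350305, plus strand). It was at 181, 198 and 209 CPM in control replicates 1 to 3 and at 278, 299 and 339.9 CPM in the overexpression replicates. Each overexpression library was above each control, and overexpression replicate 3 was the highest. The means of 196 ± 14.1 and 306 ± 31.4 CPM differed 1.56-fold (log2 fold change 0.64 ± 0.07 SE, edgeR adjusted p = 3.369e-05). With control replicate 1 and overexpression replicate 3 both left out, the log2 fold change was 0.50. Of the genes that overlap TXNRD1 on the same strand, EID3 had 33 to 40 counts in controls and 75 to 88 with overexpression and the pseudogene RPL18AP3 100 to 157 counts in all 6 libraries, against 6455 to 12655 counts of TXNRD1.

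SRXN1 encodes sulfiredoxin, which repairs peroxiredoxins that have been oxidised too far to be recycled by thioredoxin. It was at 83.6, 90.0 and 95.6 CPM in controls and at 97.9, 104 and 110.3 CPM with overexpression. The groups did not overlap, but the highest control and the lowest overexpression library were close. The rise was 15.9% (log2 fold change 0.21 ± 0.06 SE, edgeR adjusted p = 0.0154), and the call ended without overexpression replicate 3 (log2 fold change 0.17, adjusted p = 0.0502). SRXN1 had 0.461, 0.454 and 0.457 counts per TXNRD1 count in controls and 0.352, 0.347 and 0.325 with overexpression (n = 3 each, two-sided exact permutation p = 0.1, which is the lowest this design can reach, and 0.125 adjusted over the 5 ratios). These ratios are taken within a library and do not depend on the scaling.

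Glutamate-cysteine ligase makes the first and limiting step of glutathione synthesis. GCLC encodes its catalytic subunit (ENSG00000001084.13, chromosome 6, 53497341 to 53616970, minus strand) and GCLM its modifier subunit (ENSG00000023909.10, chromosome 1, 93885205 to 93909456, minus strand). GCLC was at 33.4, 37.3 and 38.6 CPM in controls and at 43.0, 39.9 and 47.8 CPM with overexpression. The groups did not overlap, and GCLC rose by 19.6% (log2 fold change 0.26 ± 0.08 SE, edgeR adjusted p = 0.0181). The call ended without overexpression replicate 3 (0.19, adjusted p = 0.067) and without that library and control replicate 1 together (0.13, adjusted p = 0.064). GCLM was at 48.6, 64.9 and 65.6 CPM in controls and at 61.2, 62.3 and 72.0 CPM with overexpression. Control replicate 1 was the lowest library, and the other controls lay among the overexpression libraries. Its log2 fold change was 0.13 ± 0.10 SE (edgeR adjusted p = 0.35) and was −0.00 without control replicate 1. GCLC counts per GCLM count were 0.617 ± 0.061 in controls and 0.669 ± 0.032 with overexpression (n = 3 each, two-sided exact permutation p = 0.3), a difference within the spread of the libraries.

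TXNRD1, SRXN1, GCLC and GCLM shared a feature across libraries. For each of these 4 genes control replicate 1 was the lowest and overexpression replicate 3 the highest of all 6 libraries. These are the libraries that stood apart over all genes. The same order held for IGF2BP3 and NFE2L2, so it was not particular to these 4 genes. The share of all genes with this order was not computed.

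NQO1, a flavoprotein that reduces quinones with NADH or NADPH, is widely used as a readout of NRF2 activity (ENSG00000181019.13, chromosome 16, 69706996 to 69726951, minus strand). It was at 358, 341 and 355 CPM in controls and at 234, 246 and 226 CPM with overexpression. The libraries of each group lay close together, and the groups were far apart. From 351 ± 8.97 to 235 ± 9.75 CPM it fell by 33.0% (log2 fold change −0.58 ± 0.04 SE, edgeR adjusted p = 2.644e-06), which was the smallest p of the 10 genes. Without control replicate 1 and overexpression replicate 3 the log2 fold change was −0.54. The antisense RNA annotated over NQO1, listed as CTD-2033A16.1, had 59 to 100 counts in controls and 17 to 33 with overexpression. The libraries were strand-specific, but whether the counter used the strand is unknown here, and reads of the antisense RNA and of NQO1 may be mixed, and NQO1 had 8420 to 12792 counts.

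NQO1 fell and TXNRD1 rose in CPM, and their ratio within a library separated the groups. NQO1 had 1.97, 1.72 and 1.69 counts per TXNRD1 count in controls and 0.842, 0.821 and 0.665 with overexpression. Controls thus held more NQO1 than TXNRD1 counts, and the overexpression libraries held fewer. The means were 1.80 ± 0.154 and 0.776 ± 0.096 (n = 3 each, two-sided exact permutation p = 0.1, the smallest possible, and 0.125 after Benjamini-Hochberg adjustment over the 5 ratios computed).

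**Figure D2:**
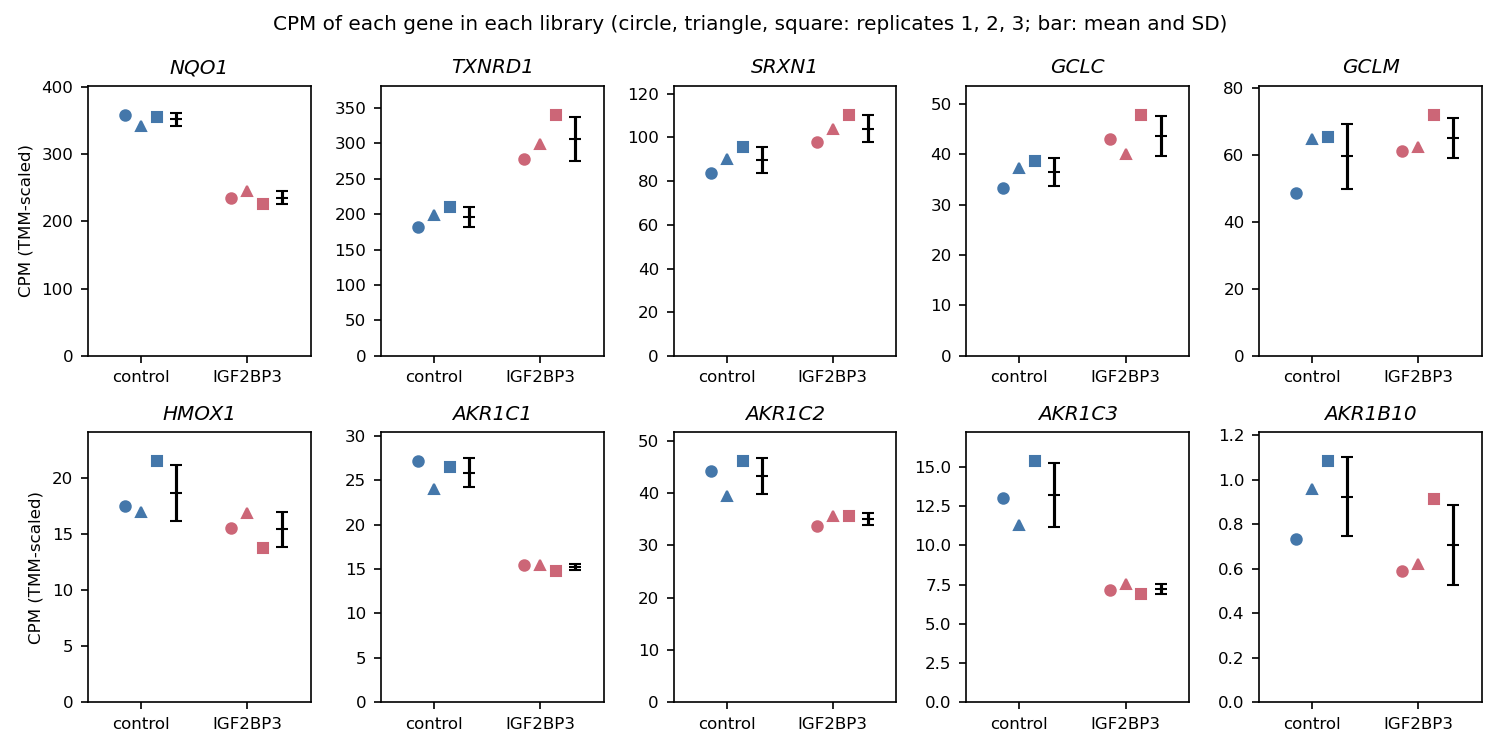
CPM of each of the 10 genes (y axes from 0) in the 3 control and 3 overexpression libraries, with replicates 1, 2 and 3 as circle, triangle and square and the mean and SD as a bar. NQO1 and the AKR1C genes lie lower with IGF2BP3, TXNRD1 lies higher, and the groups overlap for GCLM and AKR1B10.

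HMOX1 encodes heme oxygenase, which opens heme to biliverdin, iron and carbon monoxide and which BACH1 is known to repress (ENSG00000100292.18, chromosome 22, 35380361 to 35394214, plus strand). It was at 17.6, 17.0 and 21.5 CPM in controls and at 15.6, 16.9 and 13.8 CPM with overexpression. Control replicate 2 and overexpression replicate 2 were nearly level, and in the authors' FPKM the groups overlapped. The log2 fold change was −0.28 ± 0.10 SE, and the adjusted p of edgeR, 0.04997, lay at the threshold. The call ended under 7 of 17 other settings, among them those that left out control replicate 3 (−0.16, adjusted p = 0.24), overexpression replicate 1 (−0.28, adjusted p = 0.11) or overexpression replicate 3 (−0.20, adjusted p = 0.17).

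The AKR1C genes fell as a group of neighbours. AKR1C1, an enzyme that inactivates progesterone, was at 27.1, 24.0 and 26.4 CPM in controls and at 15.4, 15.4 and 14.8 CPM with overexpression. It fell by 41.1% (log2 fold change −0.76 ± 0.07 SE, edgeR adjusted p = 1.005e-05). AKR1C3, which makes testosterone and prostaglandin F, was at 13.0, 11.3 and 15.4 CPM in controls and at 7.15, 7.58 and 6.93 CPM with overexpression. It fell by 45.5%, the largest change of the 10 genes (log2 fold change −0.88 ± 0.11 SE, edgeR adjusted p = 9.580e-05). Of all genes tested 5.18% had a larger change than AKR1C3 in either direction.

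AKR1C2, which reduces dihydrotestosterone, changed less than its neighbours. It was at 44.2, 39.5 and 46.1 CPM in controls and at 33.6, 35.7 and 35.6 CPM with overexpression. The groups did not overlap, and the fall was 19.1% (log2 fold change −0.31 ± 0.07 SE, edgeR adjusted p = 0.0032). AKR1C1 had 0.613, 0.609 and 0.573 counts per AKR1C2 count in controls and 0.459, 0.432 and 0.415 with overexpression. AKR1C3 had 0.295, 0.286 and 0.333 counts per AKR1C2 count in controls and 0.212, 0.212 and 0.194 with overexpression. Neither ratio overlapped between the groups (two-sided exact permutation p = 0.1 for each, the smallest possible with n = 3, and 0.125 adjusted over the 5 ratios). Because reads shared by the copies can be credited to either, the sum of the 3 genes is the safer value. It was at 84.3, 74.8 and 87.9 CPM in controls and at 56.2, 58.7 and 57.4 CPM with overexpression, a change of −30.2% on the means.

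**Figure D3:**
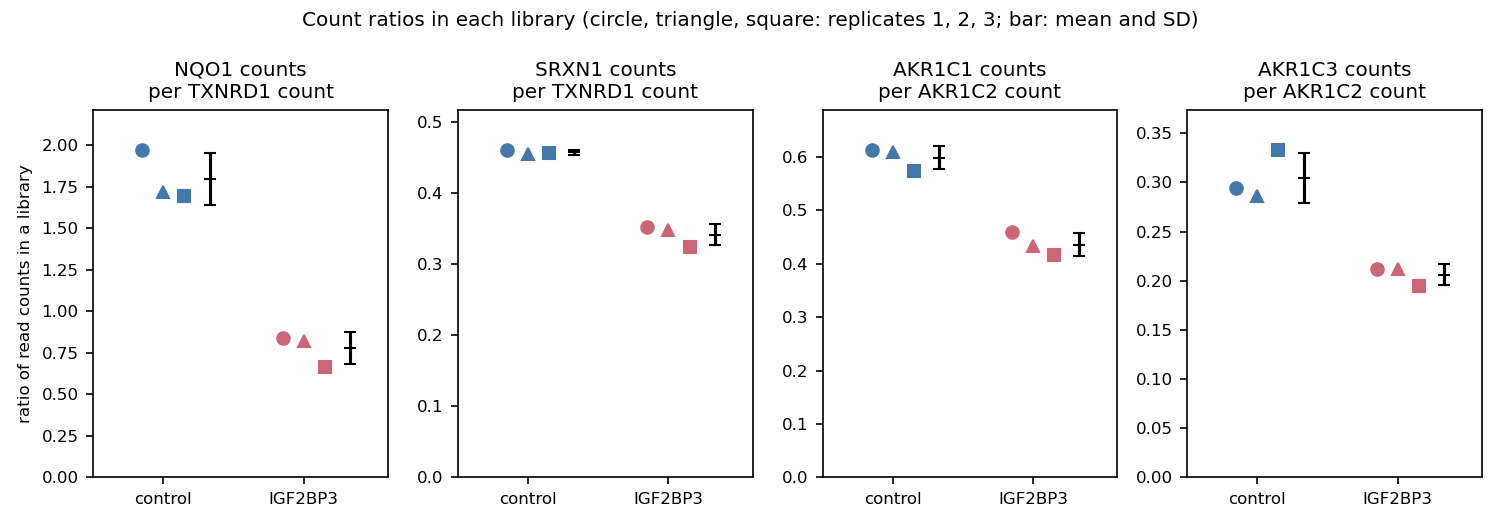
Ratios of read counts within each library (y axes from 0) for NQO1 and SRXN1 over TXNRD1 and for AKR1C1 and AKR1C3 over AKR1C2, with replicates 1, 2 and 3 as circle, triangle and square and the mean and SD as a bar. For all 4 ratios the overexpression libraries lie below every control library, for NQO1 over TXNRD1 at 0.665 to 0.842 against 1.69 to 1.97.

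AKR1B10, an enzyme that reduces retinal and other aldehydes (ENSG00000198074.10, chromosome 7, 134527592 to 134541408, plus strand), was barely expressed. It had 26, 32 and 39 counts in controls and 22, 22 and 34 with overexpression. The groups overlapped, and the log2 fold change of −0.38 ± 0.27 SE did not pass (edgeR adjusted p = 0.295). Over 16 other settings the log2 fold change ranged from −0.75 to −0.09 and was not called in any of them.

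Compared per length, by the authors' FPKM, NQO1 was the most abundant of the 10 genes in both groups (98.5 ± 2.50 in controls and 68.4 ± 2.21 with overexpression). In controls SRXN1 (29.6 ± 2.63) stood above TXNRD1 (24.4 ± 2.29) without overlap. With overexpression TXNRD1 (39.4 ± 4.68) had the higher mean and overlapped SRXN1 (35.6 ± 2.65). GCLM, HMOX1, AKR1C2 and GCLC followed in this order in both groups, with means of 9.18 down to 3.53 in controls and 10.4 down to 4.37 with overexpression. GCLM and HMOX1 overlapped in controls, and AKR1C2 and GCLC with overexpression. AKR1C3 (2.82 ± 0.466 and 1.59 ± 0.058) and AKR1C1 (2.46 ± 0.138 and 1.50 ± 0.015) came next and overlapped in controls, as did GCLC and AKR1C3. AKR1B10 was last at 0.433 ± 0.096 and 0.343 ± 0.093.

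**Figure D4:**
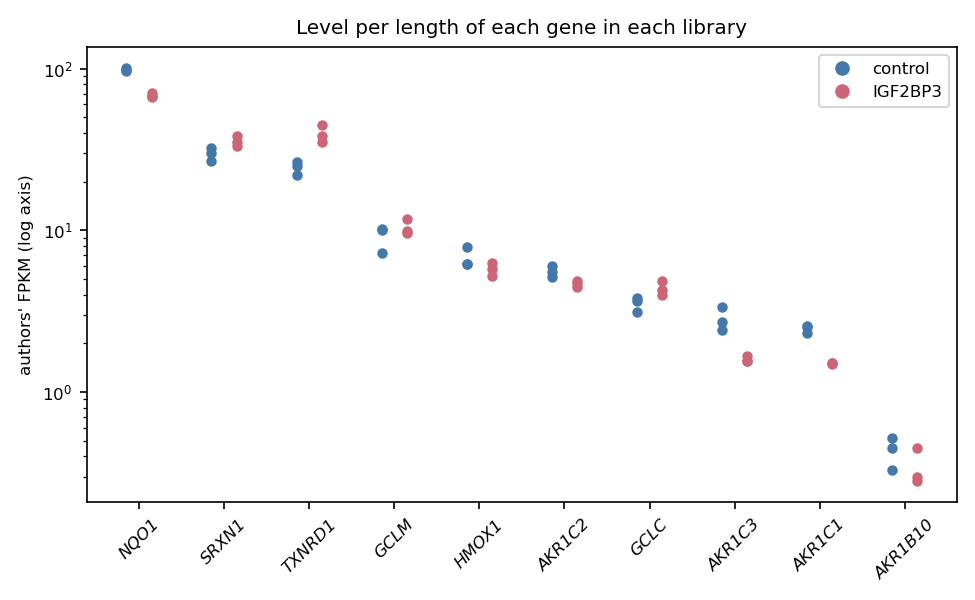
The authors' FPKM (log axis) of each of the 10 genes in each library, ordered by the control mean. NQO1 is the highest in both groups, from 66.9 to 101 FPKM, and AKR1B10 the lowest, under 1 FPKM.

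The counts in each list of pathway genes stand beside shares of 18.5% called higher and 19.2% called lower over all genes tested, and beside a median log2 fold change of −0.01. Of 16 regulators of the pathway, 9 rose and 1 fell, and the median log2 fold change was 0.18. The list holds genes that act for NRF2 and genes that act against it, so these counts give no direction of the pathway. Besides the genes given below, GSK3B (0.25 ± 0.05), BTRC (0.24 ± 0.07), CUL3 (0.18 ± 0.05), NFE2L1 (0.18 ± 0.04) and NFE2L3 (0.17 ± 0.06) rose. The gene that fell was DPP3 (−0.18 ± 0.04). The calls of CUL3 and NFE2L3 ended under upper quartile scaling. NFE2L2, which encodes NRF2 itself, rose from 184 ± 17.7 to 230 ± 11.3 CPM (0.32 ± 0.06 SE, edgeR adjusted p = 0.0021). SQSTM1, the p62 adaptor that sequesters KEAP1 and is itself an NRF2 target, rose from 685 ± 12.6 to 1014 ± 36.3 CPM (0.56 ± 0.04). The small MAF genes differed. MAFF rose from 37.8 ± 4.35 to 59.5 ± 2.78 CPM (0.66 ± 0.08), and MAFG from 25.1 ± 1.98 to 29.6 ± 1.54 CPM (0.24 ± 0.07). The call of MAFG ended without control replicate 2, overexpression replicate 2 or overexpression replicate 3, each left out alone. MAFK, with a log2 fold change of −0.14 ± 0.07, did not pass. KEAP1 (0.10 ± 0.04, adjusted p = 0.074) and BACH1 (−0.03 ± 0.08, adjusted p = 0.78) did not pass either, although KEAP1 did without overexpression replicate 3 (0.12, adjusted p = 0.040). The RNA of NRF2 was thus higher where NQO1 and the AKR1C genes were lower and TXNRD1, GCLC and SRXN1 were higher. RNA levels give no measure of NRF2 protein or of its activity.

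In glutathione synthesis and use 5 of 18 tested genes rose and 7 fell, where 37.7% of all genes were called in either direction, with a median of −0.11. The 3 with the smallest p all fell. GPX2, the glutathione peroxidase of the gut epithelium and a known NRF2 target, fell from 45.9 ± 0.991 to 32.2 ± 0.913 CPM (−0.51 ± 0.05). The transferase genes MGST2 (−0.47 ± 0.05) and GSTK1 (−0.46 ± 0.05) fell as well. The genes that rose were CHAC1 (0.51 ± 0.09), MGST1 (0.24 ± 0.05), SLC7A11 (0.21 ± 0.07), GSS (0.17 ± 0.04) and GPX1 (0.17 ± 0.06). The rises numbered 3 without control replicate 2, without control replicate 3, without overexpression replicate 1 and under upper quartile scaling.

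In the thioredoxin and peroxiredoxin list 4 of 15 rose and 7 fell, with a median of −0.15. TXNIP, which binds and inhibits thioredoxin, had the largest rise (1.47 ± 0.09). Catalase, encoded by CAT, fell from 53.7 ± 1.54 to 38.1 ± 1.79 CPM (−0.50 ± 0.06), and the peroxiredoxin gene PRDX2 from 299 ± 15.5 to 215 ± 19.6 CPM (−0.48 ± 0.06).

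Of the NADPH supply genes 1 of 8 rose and 4 fell, with a median of −0.15. IDH1, the cytosolic isocitrate dehydrogenase, fell from 229 ± 9.30 to 164 ± 6.16 CPM (−0.48 ± 0.05), and PGD, an enzyme of the pentose phosphate pathway, from 321 ± 9.39 to 231 ± 14.6 CPM (−0.47 ± 0.05). MTHFD2, a mitochondrial folate enzyme that is also an ATF4 target, rose (0.35 ± 0.06).

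Other enzymes of quinone, carbonyl and drug conversion went both ways, 4 of 12 tested higher and 3 lower, with a median of 0.09. The aldehyde dehydrogenase gene ALDH3A2 rose (0.39 ± 0.06), ALDH1A1 fell (−0.24 ± 0.04), and PIR, an iron-binding nuclear protein and NRF2 target, fell (−0.37 ± 0.07). UGDH (0.39 ± 0.08), OSGIN1 (0.27 ± 0.09) and EPHX1 (0.19 ± 0.05) also rose, and NQO2 (−0.26 ± 0.07) also fell. The call of OSGIN1 ended under upper quartile scaling. In the heme and iron list 0 of 8 rose and 5 fell, with a median of −0.15. ABCB6, a porphyrin transporter, fell from 23.3 ± 1.77 to 13.5 ± 1.21 CPM (−0.79 ± 0.09), and ferritin light chain, encoded by FTL, from 4009 to 3310 CPM (−0.28 ± 0.05). BLVRA, which reduces the biliverdin that heme oxygenase makes, fell (−0.18 ± 0.05). That call ended without control replicate 2 or control replicate 3 (adjusted p = 0.071 and 0.059). The falls of this list numbered 3 without control replicate 1 or overexpression replicate 3 and 2 without control replicate 2 or control replicate 3. Of the 6 efflux transporters linked to NRF2, 0 rose and 3 fell, with a median of −0.29, namely ABCC3 (−0.43 ± 0.06), ABCC5 (−0.35 ± 0.06) and ABCC2 (−0.48 ± 0.12).

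**Figure D5:**
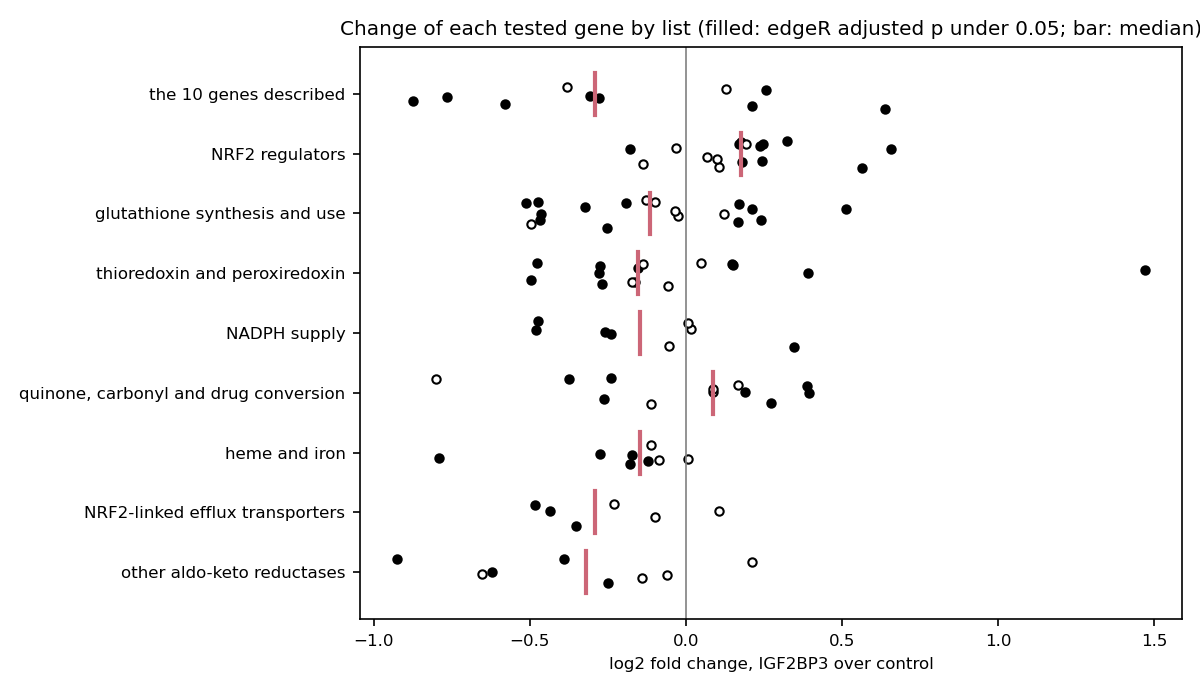
Log2 fold change of each tested gene (x axis, overexpression over control) by list, filled where edgeR's adjusted p was under 0.05, with the list's median as a vertical bar. The regulators lie mostly above 0 (9 of 16 higher and 1 lower), where 18.5% of all genes were called higher and 19.2% lower. The regulator list holds genes that act for NRF2 and genes that act against it.

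Among the other aldo-keto reductases and their relatives 0 of 8 tested genes rose and 4 fell, where 18.5% and 19.2% of all genes did, with a median of −0.32. AKR1A1, the aldehyde reductase, fell from 209 ± 6.22 to 176 ± 14.2 CPM (−0.25 ± 0.06, edgeR adjusted p = 0.0044), and AKR7A2, which reduces succinic semialdehyde, from 36.5 ± 1.30 to 27.9 ± 3.79 CPM (−0.39 ± 0.09). KCNAB2, a potassium channel subunit with an aldo-keto reductase fold, fell from 8.22 ± 0.434 to 5.34 ± 0.529 CPM (−0.62 ± 0.11). AKR1C4, the liver enzyme of the AKR1C cluster, fell from 1.32 ± 0.202 to 0.693 ± 0.187 CPM (−0.92 ± 0.26, adjusted p = 0.014). That call ended without control replicate 2 (adjusted p = 0.051) or overexpression replicate 3 (0.053). AKR1B1, the aldose reductase gene, did not pass (−0.14 ± 0.06, adjusted p = 0.080). Neither did KCNAB1 (−0.65 ± 0.35), KCNAB3 (−0.06 ± 0.15) and AKR7A3 (0.21 ± 0.31).

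The genes whose profile over the 6 libraries lay nearest to that of TXNRD1 were ZNHIT6, RRN3 and ATAD1, at Euclidean distances of 0.096, 0.098 and 0.108 on the log2 CPM scale among 11138 genes searched. Their log2 fold changes were 0.63, 0.66 and 0.64. Nearest to AKR1C3 were TMCO6, CYP2B6 and ACOT11, at distances of 0.168, 0.188 and 0.212, with log2 fold changes of −0.86, −0.82 and −0.80. Because the genes were chosen by the closeness of these profiles, similar log2 fold changes follow from the choice. CYP2B6 encodes a liver drug-metabolising cytochrome.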

How the data were processed

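Tables deposited by the authors were used, one of unnormalized read counts per gene and one of FPKM, which scales counts by gene length and library size. The submitters' processing notes name HISAT2, DESeq2 and GRCh38. The counting tool, any strand setting and the annotation were not given in the sources used here. Counts of 6 libraries (3 a group, by title) were filtered with filterByExpr (minimum count 10, minimum total 15), scaled by TMM and tested with edgeR 4.0.16 in R 4.3.3 (quasi-likelihood F test, no covariate, Benjamini-Hochberg over 17747 genes). The SE is the absolute log2 fold change divided by the square root of F. FPKM served to compare genes per length and, with limma 3.58.1, as an alternative, as did DESeq2 1.42.0. No 2 libraries agreed within sampling noise. The labels do not say whether replicates were separate cultures, so p-values measure only how these libraries vary, possibly for technical reasons. The 10 genes and all lists were chosen with earlier results of these data known. Besides these 10 genes, the text names the NRF2 regulators NFE2L2, KEAP1, BACH1, MAFF, MAFG and MAFK, the 3 smallest p of each list, all aldo-keto reductases tested and the 3 nearest profiles (mean CPM of at least 5) of the largest rise and fall; other genes were named after their values were seen. The pipeline was also run on simulated counts that had the same dispersion for every gene and no library standing apart. That setting differs from these data, so the run is no support for the calls made here. Positions are from GENCODE release 29 on GRCh38, joined by Ensembl gene ID.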

Additional observations from a re-analysis of the deposited data

How the results depend on the processing

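Over 17 other settings (scalings, filters, DESeq2, limma-voom, limma on FPKM, the replicate block, each library left out and control replicate 1 with overexpression replicate 3 left out), NQO1, TXNRD1, AKR1C1, AKR1C2 and AKR1C3 kept their direction and call. Their log2 fold changes ranged from −0.62 to −0.52, 0.50 to 0.71, −0.81 to −0.47, −0.37 to −0.21 and −0.97 to −0.55. HMOX1 lost its call in 7 of them, GCLC in 3 and SRXN1 in 1. With each library left out in turn 1 to 3 of the 10 genes were called higher and 4 to 5 lower, and the 1 was without overexpression replicate 3. At an adjusted p under 0.01, 1 of the 10 was higher and 4 lower, with 2090 higher and 2203 lower of all genes against 3288 and 3410. At a fold of 1.5 or more 1 of the 10 was higher and 2 lower, with 406 and 1268 of all genes. Without control replicate 1 and overexpression replicate 3, GSTP1 (−0.03 with all libraries) was called at 0.086 and PGLS (−0.05) at 0.11. Same-numbered libraries correlated in their deviations at 0.09, −0.04 and 0.08, and differently numbered ones at −0.13 to 0.08. With 3 libraries a group these values cannot decide whether the numbers pair the libraries. With the replicate number as a block 3339 genes were higher and 3509 lower, the 10 genes kept 3 and 5, and not every library correlated best with its own number. AKR1B10 rests on 22 to 39 counts a library. The causes of these differences were not tested.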
